A study of Mus musculus with 17 samples.

Results

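The 10 genes examined here encode the scaffold of the excitatory postsynapse. They are Dlg2, Dlg3 and Dlg4, Dlgap1 to Dlgap4, and Shank1 to Shank3, and they were taken by symbol from the 24498 gene symbols in the count table. All 10 were found and all 10 passed the filter on low counts in every fit. Poly(A) RNA was sequenced from 17 libraries of mouse dorsal hippocampus, cut as slices with all CA fields and the dentate gyrus. The animals were wild type (WT) or constitutive Acss2 knockouts (KO), both bred from homozygous F1 offspring of heterozygous parents. The product of Acss2, acetyl-CoA synthetase 2, turns acetate into acetyl-CoA. Each mouse was injected in the dorsal hippocampus, at the age of 6 months, with tau isolated from the brains of patients with Alzheimer's disease (Tau) or with saline (PBS). Per the study's methods, molecular work was done 6 months after the injection. Males were WT PBS, WT Tau, KO PBS or KO Tau (3 libraries per group), and females were KO Tau (3 libraries) or WT Tau (2 libraries). No female PBS group was present, so every comparison that involves females was made under Tau. The labels' extraction protocol gives perfusion with paraformaldehyde before the RNA was extracted, a step that the study's RNA methods do not name. Each library goes by its label's number.

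Excitatory synapses sit on dendritic spines, where receptors for glutamate are held opposite the release site by a layered protein mesh, the postsynaptic density. Proteins of the Dlg family (membrane-associated guanylate kinases) lie nearest the membrane and bind receptors and their auxiliary subunits. Dlgap proteins link the guanylate kinase domain of Dlg proteins to Shank proteins, which form the deeper layer and attach, through Homer and cortactin, to intracellular receptors and to actin.

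Total counts per library ran from 14183131 to 22463635. The member with the fewest counts, Dlgap2, had 492 to 1461 per library, and the other 9 had at least 1848, so counting error was small beside the spread between libraries. Acss2 was at 44.0 to 54.6 CPM (counts scaled to the library total) in the 8 WT libraries and at 3.07 to 8.81 CPM in the 9 KO libraries, which matched the genotype labels. Markers of dentate granule cells and of CA1 were present in every library, at a summed 171 to 694 CPM (8 genes) and 320 to 883 CPM (4 genes). Some libraries stood apart. KO PBS 752 and KO Tau 712 had the lowest dentate granule sums (171 and 195 CPM). KO PBS 752 had the highest neocortex sum (5 genes, 402 CPM) and the lowest male CA1 sum (349 CPM). It also had 459 CPM of striatum markers (7 genes), against 69.6 to 165 CPM in the other libraries. KO Tau 713 had 4043 CPM of choroid plexus markers (9 genes). KO Tau 711 had 8120 CPM of astrocyte markers (8 genes), against 4355 to 5195 CPM in the other 11 male libraries. In bulk tissue, fewer cells of a type and less RNA per cell cannot be told apart.

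Promoter sequence is shown first for Shank3 and Dlg3, because these members went in opposite directions in the comparison in which members passed the test. The RefSeq table (GRCm38.p6) held 13 promoters for 7 of the 10 members, and none for Dlgap2, Shank1 and Shank2. Each line gives the 250 bases before a start on the plus strand, 5′ to 3′. Capitals mark matches, on either strand, to the GC box GGGCGG bound by SP factors or to the RBPJ core TGGGAA. Shank3 (chr15:89499358-89499607) lies outside any annotated gene. Dlg3 has 2 listed starts (chrX:100774245-100774494 and chrX:100777021-100777270), and both stretches lie inside the Dlg3 gene, in no annotated exon.
Shank3: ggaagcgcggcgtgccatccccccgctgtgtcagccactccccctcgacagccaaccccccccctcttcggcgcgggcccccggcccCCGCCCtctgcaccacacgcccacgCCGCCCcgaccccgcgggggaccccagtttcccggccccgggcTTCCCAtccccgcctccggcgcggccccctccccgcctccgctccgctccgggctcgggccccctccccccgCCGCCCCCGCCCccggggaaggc
Dlg3, first start: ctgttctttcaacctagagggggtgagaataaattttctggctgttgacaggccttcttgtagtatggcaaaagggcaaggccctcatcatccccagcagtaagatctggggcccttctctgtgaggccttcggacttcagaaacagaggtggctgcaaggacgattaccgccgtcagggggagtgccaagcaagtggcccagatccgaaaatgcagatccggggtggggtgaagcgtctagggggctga
Dlg3, second start: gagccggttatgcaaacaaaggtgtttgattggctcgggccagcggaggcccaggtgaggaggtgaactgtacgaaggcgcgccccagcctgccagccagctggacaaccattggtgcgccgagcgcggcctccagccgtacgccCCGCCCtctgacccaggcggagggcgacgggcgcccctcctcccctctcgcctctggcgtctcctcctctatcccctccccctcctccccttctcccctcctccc
The Shank3 window of 300 bases (250 before and 50 after the start) was rich in CpG, with 40 CpG and 81% GC. The Dlg3 windows had 9 and 28 CpG, and the median over all 32851 promoters was 7 CpG and 52.7% GC. The SP letters were in 4 of the 13 member promoters (of Dlgap4, Dlg4, Shank3 and Dlg3) and in 35.7% of all promoters. The RBPJ letters were in 5 (Dlg2 and Dlg4, each at 2 starts, and Shank3) and in 25.6% of all. The RFX half-site GTTGCC was in 0 of the 13 and in 12.5% of all, and the cAMP response element TGACGTCA in 0 and 1.79%. These are matches of letters only, searched on both strands, and they say nothing of binding.

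Per length, the members spanned about an order of magnitude. The scale is CPM per kb of the union of annotated exons, averaged over the 17 libraries. Dlgap3, whose loss in mice is known for compulsive grooming, was highest at 96.7 ± 24.5 (SD, n = 17), followed by Dlg4, the gene of PSD-95 and the best known of the receptor-binding scaffolds, at 59.8 ± 9.42. Shank1 (44.3 ± 17.4), Dlg3 (40.8 ± 6.65), Shank3 (38.4 ± 15.1), Dlgap4 (37.0 ± 3.73) and Dlgap1 (36.9 ± 4.26) formed a middle set. Dlg2 (23.2 ± 4.77), Shank2 (12.3 ± 2.29) and Dlgap2 (9.39 ± 1.91) were lowest. Dlgap3 exceeded Dlg4, Dlgap1 exceeded Dlg2, Dlg2 exceeded Shank2 and Shank2 exceeded Dlgap2 in 17 of 17 libraries. Dlg4 exceeded Shank1 in 15 of 17. Within the middle set neighbours did not keep their order: Shank1 exceeded Dlg3 in 6 of 17 libraries and Dlgap4 exceeded Dlgap1 in 8 of 17. Levels between members depend on the length used. With the longest transcript in its place, 8 of 10 ranks changed, and Dlg4 (125 CPM per kb) came before Dlgap3 (104).

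**Figure D1:**
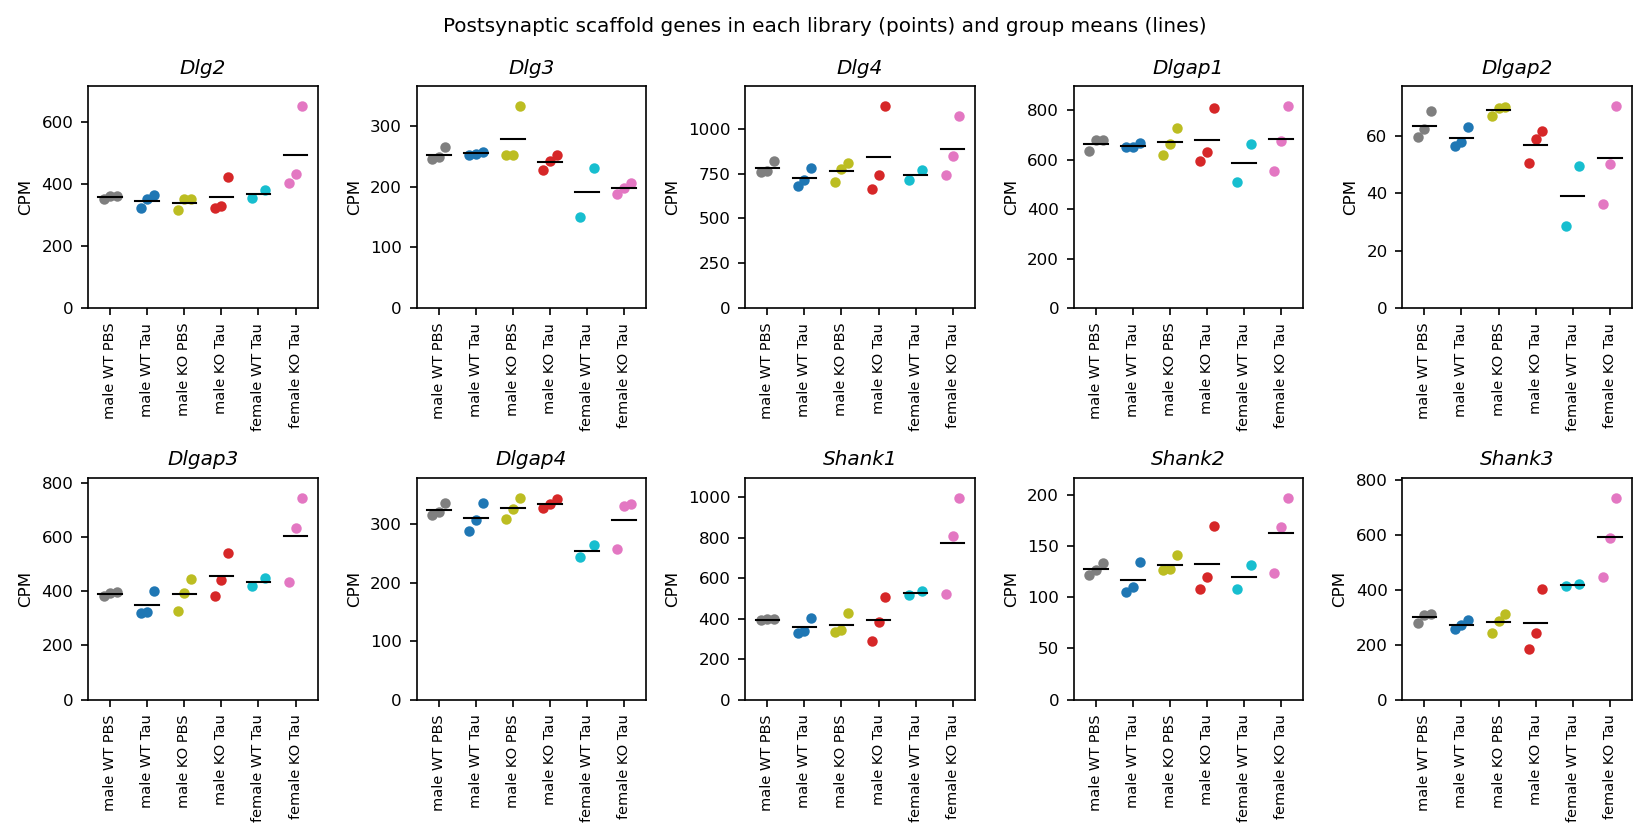
CPM of each of the 10 genes (vertical axes from 0) in each library (points) of the 6 groups, with group means (lines). Shank1 and Shank3 were higher in the 5 female libraries than in any male library, and 1 male KO Tau library (711) stood above the other 2 for Dlg4, Shank1, Shank2 and Shank3.

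The Dlg genes, nearest the receptors, are given first, by library in males. Dlg4 (ENSMUSG00000020886.17, chr11:70016942-70047522) was at 766, 819 and 759 CPM in WT PBS, 682, 712 and 779 in WT Tau, 809, 701 and 777 in KO PBS, and 1126, 663 and 743 in KO Tau (711, 712 and 713). The groups overlapped, and the KO Tau mean of 844 ± 248 CPM (SD, n = 3) held library 711, far above the other 2. Dlg2 (ENSMUSG00000052572.17, chr7:90476672-92449247), the gene of PSD-93, was at 316 to 365 CPM in 11 male libraries and at 422 CPM in KO Tau 711. Dlg3 (ENSMUSG00000000881.12, chrX:100767722-100818410) encodes SAP102, which carries NMDA receptors early in development, and human loss of it causes an X-linked intellectual disability. Its male values lay between 227 and 264 CPM in 11 libraries, and 1 library, KO PBS 751, stood above them at 332 CPM. Dlg3 was thus the one Dlg gene that was not high in KO Tau 711, where it had its lowest male value.

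Among the linkers, Dlgap3 (ENSMUSG00000042388.14, chr4:127169204-127237022) varied most in males. It was at 382, 394 and 396 CPM in WT PBS, 321, 323 and 401 in WT Tau, 328, 445 and 395 in KO PBS, and 542, 383 and 442 in KO Tau. Its 2 lowest libraries were WT Tau and its highest was KO Tau 711, but WT Tau and KO Tau overlapped. Dlgap2 (ENSMUSG00000047495.15, chr8:14095865-14847680), the least abundant, was at 62.5, 68.6 and 59.7 CPM in WT PBS, 56.5, 58.0 and 63.1 in WT Tau, 69.7, 70.0 and 66.9 in KO PBS, and 61.8, 50.4 and 58.8 in KO Tau. The 3 KO PBS libraries all lay above the 3 KO Tau libraries. Dlgap1 (ENSMUSG00000003279.17, chr17:69969073-70821413) and Dlgap4 (ENSMUSG00000061689.15, chr2:156613705-156764363) were the steadiest, with a coefficient of variation over all 17 libraries of 11.6% and 10.1%. Dlgap4 lies 1027981 bp from Acss2 on the same chromosome. Its male values were 288 to 337 CPM in WT and 310 to 345 CPM in KO.

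Shank1 and Shank3 had the widest spread of the 10, with a coefficient of variation over the 17 libraries of 39.3% and 39.4%. Shank1 (ENSMUSG00000038738.15, chr7:44310253-44360572), whose mRNA is known to travel into dendrites, was at 396, 391 and 397 CPM in WT PBS, 330.4, 338 and 405 in WT Tau, 334, 344 and 426 in KO PBS, and 507, 289 and 381 in KO Tau. Shank3 (ENSMUSG00000022623.16, chr15:89499623-89560261), whose human counterpart is lost in Phelan-McDermid syndrome, was at 309.9, 308 and 278 CPM in WT PBS, 256, 273 and 289 in WT Tau, 286, 242 and 313 in KO PBS, and 401, 186 and 244 in KO Tau. Both had their highest and their lowest male value in the same group, KO Tau, in libraries 711 and 712. Shank2 (ENSMUSG00000037541.21, chr7:144001928-144424494) showed a like split at a lower level, with 169, 108 and 120.0 CPM in KO Tau and 106 to 141 CPM in the other 9 male libraries. All 10 members lie on the plus strand of GRCm38, and positions are those of GENCODE vM21. Antisense genes overlap exons of Dlgap1, Dlgap4, Shank1 and Shank3, and the counting used strand. On the same strand, Gm45131 and Gm45159 overlap exons of Dlg2, and neither is in the count table. What that overlap did to the Dlg2 counts was not tested.

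In WT males, no member differed between Tau and PBS beyond the spread between libraries. Against male WT PBS, edgeR's quasi-likelihood test called 0 of 10 members in male WT Tau at a false discovery rate (FDR, Benjamini-Hochberg over all genes tested) of 0.05, with 0 of 15098 genes called (0%), and 0 members had an unadjusted p under 0.05. All 10 log2 fold changes were negative, from -0.18 for Dlgap3 (SE 0.15) to -0.01 for Dlg3 (SE 0.12). Their median was -0.12, beside -0.01 over all genes tested. The 3 Shank genes were at -0.16 (Shank1, SE 0.18), -0.14 (Shank2, SE 0.15) and -0.15 (Shank3, SE 0.22), each smaller than its SE.

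Without Tau, no member passed the test for loss of Acss2. In male KO PBS against male WT PBS, 0 of 10 were called, with 1 of 15098 genes called (0.00662%), Acss2 itself, and 0 members had an unadjusted p under 0.05. The median was 0.06, beside 0.01 over all genes. Dlg3 had the highest value, 0.20 (SE 0.12, unadjusted p = 0.113), with library 751 above the rest, and Dlgap2 followed at 0.17 (SE 0.10). The other members ranged from -0.05 (Shank1) to 0.10 (Shank2).

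Acss2 loss and Tau together were examined in male KO Tau mice, set against both WT groups. Against male WT PBS 0 of 10 members were called (0.00662% of genes called), 0 with an unadjusted p under 0.05, and values ran from -0.15 (Dlgap2, SE 0.10) to 0.23 (Dlgap3, SE 0.15). Shank3 was at -0.10 (SE 0.22, FDR 0.955) with all libraries. That value changed without library 711. When only these groups were fitted without it, Shank3 was at -0.47 (SE 0.12) with an FDR of 0.0655 in edgeR, where 4.15% of genes were called. DESeq2 on the same 5 libraries gave -0.47 (SE 0.13, FDR 0.00501), where 7.30% of genes were called. That fit has the study's own tool and number of libraries per group. The 2 remaining KO Tau libraries, at 186 and 244 CPM, lay below the WT PBS libraries, at 278 to 309.9 CPM. Their marker sums differed too. Neocortex markers were at 338 and 303 CPM in 712 and 713, against 210 to 226 CPM in WT PBS. Dentate granule markers were at 195 and 260 CPM, against 311 to 463 CPM. Pan-excitatory sums overlapped (3255 and 3607 CPM, against 2987 to 3287 CPM). The part of these marker differences in the Shank3 value was not tested on these 5 libraries. The other 9 members were called by neither tool on these 5 libraries. DESeq2 fits without 712 or 713 in place of 711 called 0 members, beside only 0.342% and 0.0364% of genes. With male WT PBS as the reference, Shank1 moved from 0.00 (SE 0.18) to -0.23 (SE 0.11, FDR 0.271) without library 711, and Dlgap3 from 0.23 to 0.08 (SE 0.08).

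Against male WT Tau, male KO Tau again gave 0 of 10 members called, beside 0.00662% of genes. Dlgap3 had the lowest unadjusted p, 0.0196, with a log2 fold change of 0.41 (SE 0.15, FDR 0.927), and was the 1 member under 0.05. Dlg4 was at 0.24 (SE 0.17) and Shank2 at 0.21 (SE 0.15), with the median at 0.10 beside 0.01 over all genes. Without library 711, in a fit of these groups alone, Dlgap3 was at 0.26 (SE 0.12, FDR 0.231) and Shank3 at -0.32 (SE 0.12, FDR 0.157). On these libraries edgeR called 4.88% of genes and DESeq2 9.25%, and each called 0 of 10 members. The WT Tau and KO Tau comparisons share libraries with the others and are given side by side only.

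Among the male comparisons, the lowest unadjusted p of a member came from Tau in KO mice. In male KO Tau against male KO PBS, 0 of 10 members and 0% of genes were called, and 2 members had an unadjusted p under 0.05. Dlgap2 had a log2 fold change of -0.32 with an SE of 0.10 (edgeR FDR 0.550, with 0.00742 unadjusted), lower in 3 of 3 libraries than in any KO PBS library. Dlg3 was at -0.26 (SE 0.12, edgeR FDR 0.614, with 0.0437 unadjusted), and that value held the high library KO PBS 751. The interaction of genotype and treatment, which asks whether Tau acted differently in KO, gave 0 of 10 members (0% of genes called) and 0 under an unadjusted 0.05. The members' interaction values ran from -0.26 (Dlg3, SE 0.16) to 0.37 (Dlgap3, SE 0.21).

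Averages over the other factor used all 12 male libraries. For KO against WT, 0 of 10 members were called (0.00662% of genes), all 10 values were positive with a median of 0.07, and Dlgap3 was highest at 0.23 (SE 0.11, FDR 0.945). For Tau against PBS, 0 of 10 were called (0% of genes). Dlgap2 was lowest at -0.22 (SE 0.07, edgeR FDR 0.888, with 0.00878 unadjusted), the 1 member with an unadjusted p under 0.05, and the median was -0.05. DESeq2 and voom on the 12 libraries also called 0 members in each of the 8 male comparisons. A p that misses the threshold does not show that groups were alike, and the SE of the Shank genes in males (0.15 to 0.22 in pairwise comparisons) bounds what could be seen.

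In females under Tau, each member had a higher fitted level in KO than in WT, but no member passed the test. Shank1 was at 517 and 535 CPM in female WT Tau (331 and 341) and at 997, 806 and 522 CPM in female KO Tau (314, 324 and 325). Shank3 was at 412 and 421 CPM in WT and 589.6, 734 and 447 CPM in KO, and Dlgap3 at 419 and 450.4 CPM in WT and 632, 745 and 436 CPM in KO. Libraries 314 and 324 were high in all 3 genes, while library 325 lay close to the WT libraries or among them. Dlg2 was at 356 and 379.9 CPM in WT and 651, 431 and 402 CPM in KO, so its groups did not overlap. Dlg4 was at 714 and 769.6 CPM in WT and 1069, 847 and 743 CPM in KO, which overlapped.

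The test of female KO Tau against female WT Tau called 0 of 10 members (0.00649% of 15419 genes called), and none had an unadjusted p under 0.05. DESeq2 and voom likewise gave 0 calls among them. Log2 fold changes ran from 0.10 for Dlg3 (SE 0.17) to 0.62 for Shank1 (SE 0.30, FDR 0.997). Shank3 was at 0.56 (SE 0.30), Dlgap3 at 0.54 (SE 0.25), Shank2 at 0.50 (SE 0.25) and Dlg2 at 0.49 (SE 0.23). The median was 0.48, beside -0.01 over all genes tested and 0.14 over the 33 excitatory partner genes described below. Pan-excitatory markers (3 genes) summed to 1509 and 2542 CPM in the WT libraries and 2326, 2312 and 1650 CPM in the KO libraries, in the order given above. Oligodendrocyte markers (8 genes) summed to 12310 CPM in WT 331, against 5000 to 7263 CPM in the other 4 female libraries. The part of these marker differences in the members' values was not tested. Long genes varied between the female libraries too. The median of the 10% of genes with the longest exon length minus that of the 10% with the shortest was -0.43 and -0.02 (log2) in WT 331 and 341. It was 0.23, 0.02 and -0.23 in KO 314, 324 and 325. With offsets for exon length and GC content, 0 of 10 members were called. The interaction of sex and genotype under Tau called 0 of 10 members (0% of genes), 0 with an unadjusted p under 0.05, with values from 0.07 (Dlg4, SE 0.33) to 0.52 (Shank3, SE 0.40).

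Females and males under Tau differed in 3 members, and these were the only calls among the 10 in the pairwise or averaged comparisons of the reported edgeR fits. Calls under alternatives are given with each comparison, by member or as counts. Shank1 and Shank3 were higher in females and Dlg3 was lower. Shank1 was at 517 to 997 CPM (median 535) in the 5 female libraries and at 289 to 507 CPM (median 338 in WT Tau and 381 in KO Tau) in the 6 male Tau libraries, with no overlap. Shank3 was at 412 to 734 CPM in females and 186 to 401 CPM in males, again with no overlap, and the nearest male library was KO Tau 711 in both genes. Dlg3 was at 150.4 and 231 CPM in female WT and 206, 198 and 187 CPM in female KO, against 254, 257 and 252 CPM in male WT Tau and 227, 242 and 253 CPM in male KO Tau. Female WT 341 overlapped the males, and the other 4 female libraries lay below them.

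Averaged over genotypes, the female minus male log2 fold change was 0.71 for Shank1 (SE 0.19, FDR 0.0257), 0.79 for Shank3 (SE 0.20, FDR 0.0193) and -0.41 for Dlg3 (SE 0.12, FDR 0.0289), by edgeR with adjustment over 15419 genes. This comparison called 3674 genes, 23.8% of those tested (1757 higher and 1917 lower), so 3 of 10 members is close to the share over all genes. Shank2, the third Shank gene, was at 0.11 (SE 0.17, FDR 0.652). Dlgap3 was at 0.30 (SE 0.16, FDR 0.185), Dlgap2 at -0.42 (SE 0.19, FDR 0.133), Dlgap4 at -0.27 (SE 0.11, FDR 0.0902) and Dlg4 at -0.01 (SE 0.16). Over the 22 fits of this comparison, the reported one included, Dlgap2 was called in 3, Dlgap3 in 2 and Dlgap4 in 1. The median of the 10 in the reported fit was 0.05, beside -0.01 over all genes.

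The sex difference stood beside wide differences in cell markers. Astrocyte markers summed to 8651 to 9807 CPM in the 5 female libraries and 4355 to 5195 CPM in 5 of the 6 male Tau libraries, and the sixth, KO Tau 711, was at 8120 CPM (5 of 8 markers called higher in females). Pan-excitatory markers summed to 1509 to 2542 CPM in females and 2943 to 3607 CPM in male Tau libraries (2 of 3 called lower), and inhibitory neuron markers to 499 to 705 CPM against 633 to 1059 CPM (4 of 7 lower). Microglia (4 of 8), endothelium (4 of 6), thalamus (2 of 5) and oligodendrocyte markers (2 of 8) were called higher, and neocortex markers lower (2 of 5). No marker of these lists was at 0 in any library. Shank1 and Shank3 were higher in females while the pan-excitatory sum was lower, and Dlg3 was lower with that sum. KO Tau 711, the male library with female-like astrocyte sums, also had the highest male values of Dlg2, Dlg4, Dlgap1, Dlgap3 and all Shank genes. Of these lists, the thalamus and neocortex scores were used as covariates, with the values given after the plot of markers. The part of the other lists in the members' values was not tested. The study's methods name only male mice for bulk RNA sequencing, while the labels of these 5 libraries give females. The labelled sex was not checked in the counts. Library numbers run from 314 to 341 in females and from 711 to 793 in males. The labels give no sequencing batch, so sex and any batch that ran with it cannot be told apart.

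**Figure D2:**
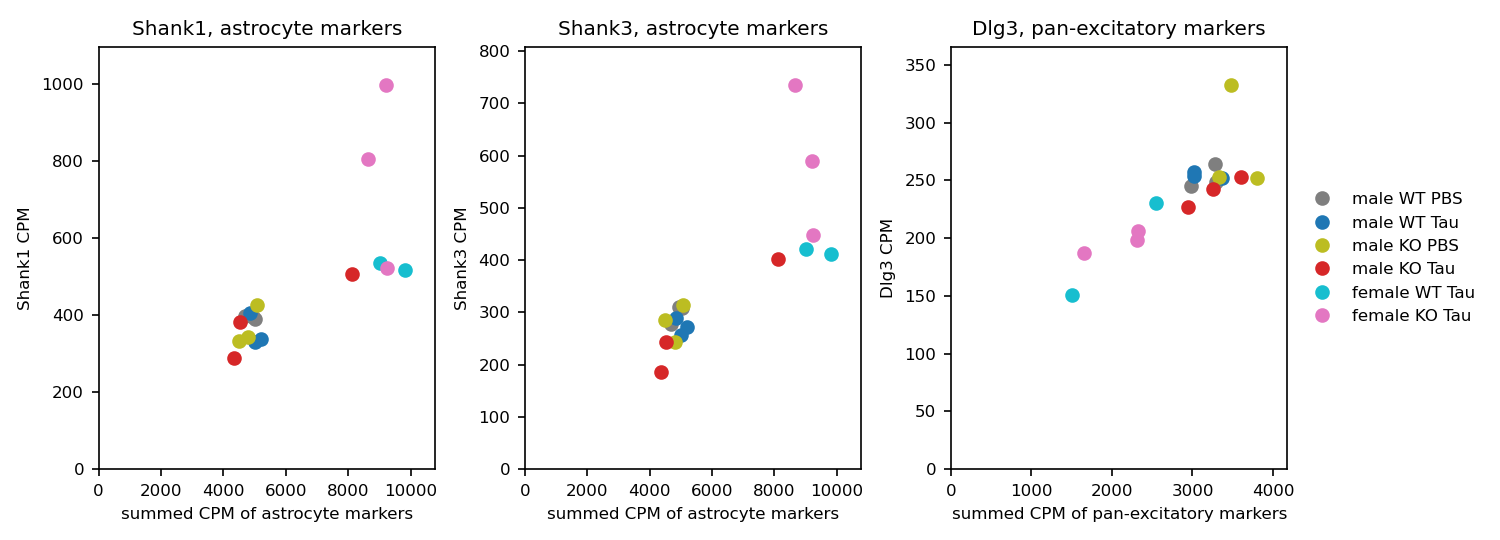
CPM of Shank1 and Shank3 against the summed CPM of 8 astrocyte markers, and of Dlg3 against 3 pan-excitatory markers, with 1 point per library coloured by group and axes from 0. The 5 female libraries and male KO Tau 711 (8120 CPM of astrocyte markers) lie apart from the other 11 male libraries, and Dlg3 is lowest in female WT 331, which also has the lowest pan-excitatory sum (1509 CPM).

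The 3 calls depended on single libraries and on some of the marker scores used as covariates. Over 22 fits Shank1 was called in 15, Shank3 in 18 and Dlg3 in 11. Shank1 and Shank3 were still called with the dentate granule marker score as a covariate. Shank3 fell short without male KO Tau 713 (0.75, FDR 0.0515) and without female WT Tau 331 (0.81, FDR 0.0684). Shank1 fell short without male WT Tau 771 (0.68, FDR 0.0593), male WT Tau 772 (0.69, FDR 0.0561), male KO Tau 713 (0.70, FDR 0.0610), female WT Tau 331 (0.73, FDR 0.0810) or female WT Tau 341 (0.68, FDR 0.0552). Dlg3 fell short when any 1 of 8 libraries was left out (male WT Tau 771, 772 and 773, male KO Tau 712 and 713, female WT Tau 331, female KO Tau 324 and 325), with values from -0.42 to -0.27 and FDR from 0.0573 to 0.0992. Over all 21 alternatives and the reported fit, Shank1 ran from 0.60 to 0.97 and Shank3 from 0.59 to 1.06. With the thalamus marker score as a covariate 0 members were called, as were 0.298% of all genes, and Shank1 was at 0.92 (SE 0.23, FDR 0.125), Shank3 at 0.75 (SE 0.26, FDR 0.186) and Dlg3 at -0.27 (SE 0.14, FDR 0.335). With the neocortex marker score 0 members were called, beside 9.77% of all genes, and Shank1 was at 0.63 (SE 0.21, FDR 0.0749), Shank3 at 0.59 (SE 0.17, FDR 0.0512) and Dlg3 at -0.41 (SE 0.13, FDR 0.0709). All 3 kept their direction under both scores. The female libraries also had lower counts of GC-rich genes: the median of the 10% of genes highest in GC minus that of the 10% lowest was -0.47 to -0.25 (log2) in females and -0.11 to 0.48 in males. The longest transcript of 8 of the 10 members had a GC content above the median of tested genes (median of members 55.1%, of genes 49.9%). With offsets for exon length and GC content Shank1 was at 0.97 (SE 0.16, FDR 0.00708), Shank3 at 1.06 (SE 0.18, FDR 0.00829), Dlg3 at -0.39 (SE 0.10, FDR 0.0312), and Dlgap3 was called too, at 0.57 (SE 0.14, FDR 0.0253).

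Over all 17 libraries, a test for any difference among the 6 groups called the same 3 members. Shank1 and Shank3 each had an FDR of 0.0162 and Dlg3 of 0.0395, beside 2967 of 15594 genes called (19%). Dlgap3 (FDR 0.0765), Dlgap4 (0.0975), Dlgap2 (0.120) and Dlg2 (0.191) did not pass, nor did Shank2 (0.361), Dlg4 (0.692) and Dlgap1 (0.720). Without female KO Tau 314 only Dlgap2 passed, and without female KO Tau 324 none of the 10 did.

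The share of each member in its family, which does not depend on library scaling, was also taken. Shank2 made up 9.09% to 11.2% of the summed Shank level (CPM per kb) in the 5 female libraries and 13.7% to 17.4% in the 12 male libraries, with no overlap. Shank1 made up 42.5% to 53.5% over all libraries. Within the Dlgap family, Dlgap3 made up 56.6% to 65.9% in females and 45.0% to 55.9% in males, also with no overlap. Within the Dlg family, Dlg2 made up 19.3% to 25.6% in females and 15.5% to 18.5% in males. Male KO Tau had the lowest male Dlgap2 share, 4.68% to 5.33%, below the 5.63% to 7.04% of the other 9 male libraries. By the GC content of the longest transcript, Shank2 is lowest in its family (54.97%, against 61.4% in Shank1 and 62.4% in Shank3). Dlgap3 is highest in its own (63.9%). Dlg2, whose share was higher in females, is lowest of the Dlg genes (44.3%, against 46.8% in Dlg4 and 50.4% in Dlg3). These shares were noticed in the values and were not tested. The part of GC content in them was not tested either.

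**Figure D3:**
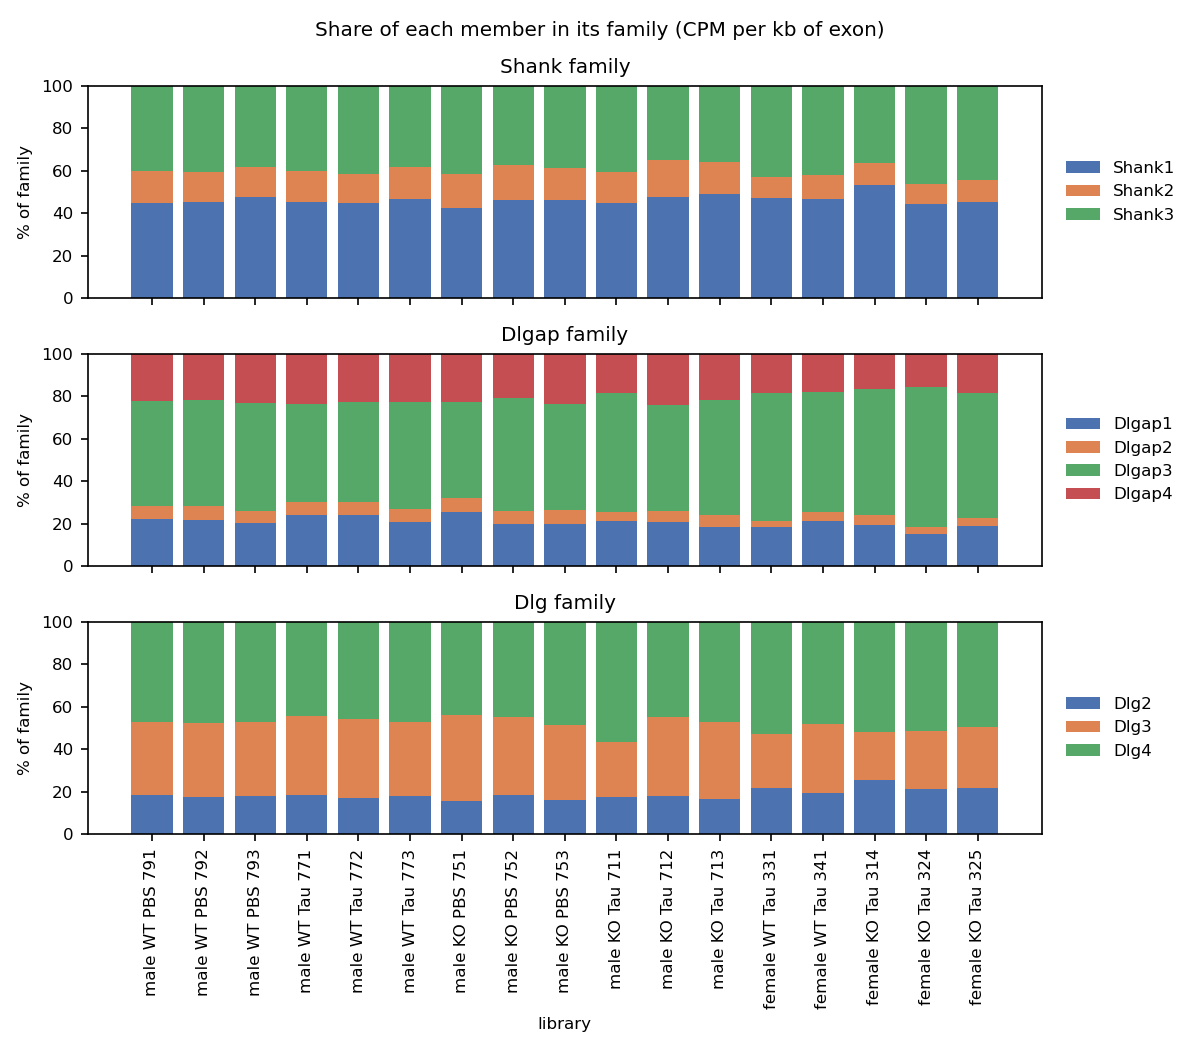
Share (percent, from 0 to 100) of each member in the summed CPM per kb of its family, 1 bar per library. Shank2 (middle part of the Shank bars) is 9.09% to 11.2% in the female libraries and 13.7% to 17.4% in the male libraries.

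Within groups, the members varied together across libraries. Pearson's r of the log2 CPM of each pair, taken as deviations from group means over the 17 libraries, is given as a description, since the points share library scaling and tissue makeup. Of the 45 pairs 15 had r above 0.8 and 0 were below 0, with a median of 0.725. The same figures were not taken for pairs of other genes. Among the members, Shank1 and Shank2 had the highest r (0.940), then Dlg4 and Shank2 (0.911). Dlg3 was least like the rest, at 0.107 with Dlgap3, 0.146 with Shank3 and 0.159 with Shank1, and was nearest to Dlgap2 (0.704). Averaged over the members, KO Tau 711 lay 0.26 (log2) above the mean of all libraries, female KO Tau 314 0.51 above and 324 0.32 above, while female WT Tau 331 lay at -0.35 and KO Tau 712 at -0.23. In KO Tau 711 and female KO Tau 314, 9 of 10 members were above their own mean, Dlg3 being the exception in both.

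**Figure D4:**
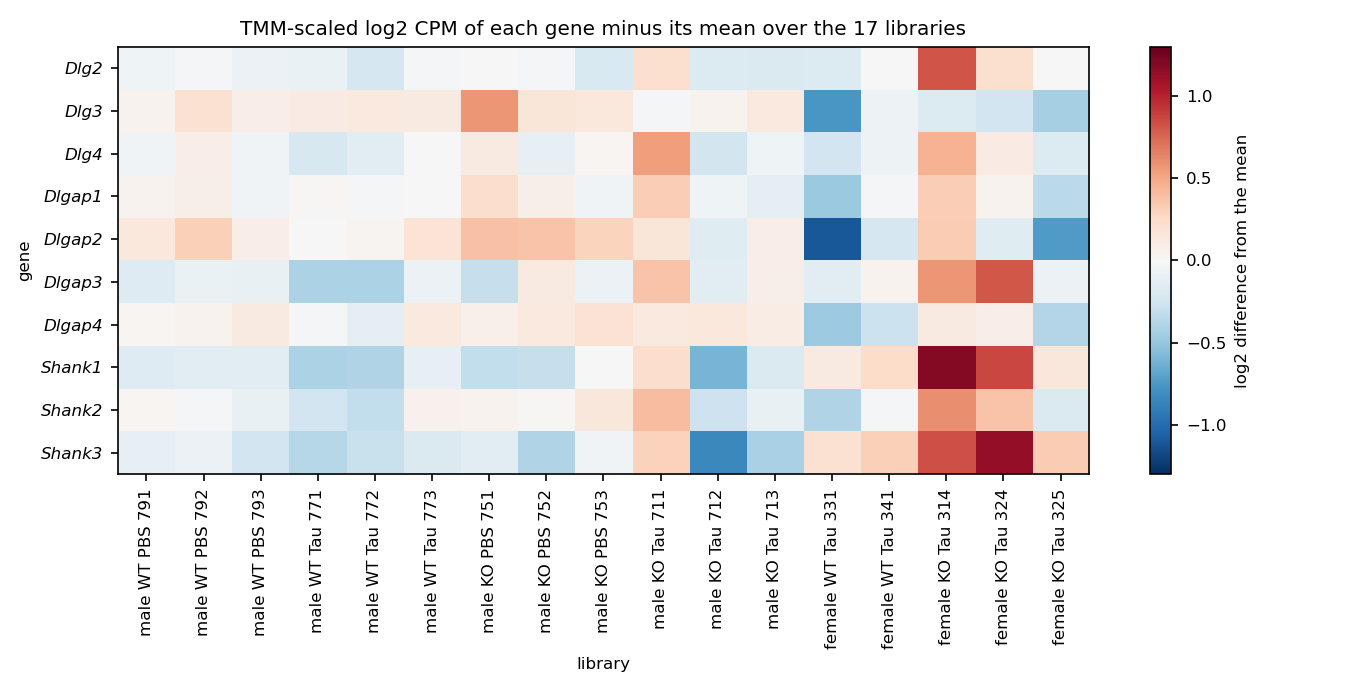
TMM-scaled log2 CPM of each gene (rows) in each library (columns) minus the gene's mean over the 17 libraries, in colour (red above, blue below). Columns of male KO Tau 711 (mean 0.26) and female KO Tau 314 (0.51) and 324 (0.32) are mostly red, and Dlg3 departs from the other rows.

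By the same measure, the genes most like a member were mostly not scaffold genes. For Dlg4 they were Fbxl16 (r = 0.979), Camk2a (0.975), the dendritic kinase of long-term potentiation, and Trak1 (0.966). For Shank3 they included Mrs2 (0.951) and Ppp1r9b (0.949), which encodes the spine protein spinophilin, and for Shank1 they were Gmeb1 (0.951), Fbxw5 (0.946) and Begain (0.942), a binding partner of PSD-95. Shank2 was most like Gmeb1 (0.960), Fbxl16 (0.958) and Rnf44 (0.950). Dlg3 was most like Trim35 (0.967), Shroom2 (0.964) and Enc1 (0.964). Dlg2 was most like Dnal1 (0.911), Ppp2r2c (0.907) and Jmjd4 (0.903). For the linkers they were Zdhhc2 (0.960), Wdr26 (0.949) and Celf2 (0.940) with Dlgap1, Med14 (0.970), Mfsd4a (0.961) and Hivep2 (0.960) with Dlgap2, Fbxo31 (0.950), Vps9d1 (0.924) and Ube3b (0.923) with Dlgap3, and Btbd6 (0.943), Srcin1 (0.942) and Irgq (0.922) with Dlgap4. The nearest fellow member stood at place 5 for Shank1 and place 6 for Shank2, and at place 807 for Dlg3.

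The partners of the scaffold at the excitatory synapse were taken from a list of 34 genes, of which 33 were tested (all but Dlgap5). In each of the 8 male comparisons, in female KO Tau against female WT Tau and in the sex by genotype interaction 0 of 33 were called. For KO Tau against WT PBS in males the median was -0.00068, from -0.56 (Homer3, SE 0.66) to 0.34 (Cacng2, SE 0.18, a TARP that ties AMPA receptors to the scaffold). Homer1, the Shank ligand, had in males 137 ± 23.9 CPM in WT PBS, 126 ± 9.42 in WT Tau, 159.7 ± 88.3 in KO PBS and 131 ± 21.4 in KO Tau (SD, n = 3 each). The 4 groups overlapped. In females against males under Tau 1 partner was called higher, Dlg5 (0.35, SE 0.10, FDR 0.0319), and 7 lower. The lower ones were Cacng3 (-1.03, SE 0.23, FDR 0.0126), Baiap2 (-0.59), Lrrtm1 (-0.37), Cttn (-0.33), Sharpin (-0.30), Iqsec1 (-0.30) and Nlgn3 (-0.28). The 8 of 33 make 24.2%, close to the 23.8% over all genes. Homer1 (-0.32, SE 0.13, FDR 0.0886), Homer2 (0.40, SE 0.30), Homer3 (0.32, SE 0.39) and Dlg1 (-0.07, SE 0.14) did not pass.

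Scaffold genes of the inhibitory synapse served as a contrast. Of 5 listed, 4 were in the table, without Insyn1. In every male comparison, in the female genotype comparison and in the sex by genotype interaction 0 of 4 were called. Gphn, the gene of gephyrin, was at 84.6 ± 3.76 CPM in male WT PBS and 76.6 ± 6.78 in male KO Tau (SD, n = 3 each), a log2 fold change of -0.14 (SE 0.08, FDR 0.825). In females against males 3 of 4 were called lower and 0 higher: Nlgn2 (-0.64, SE 0.13, FDR 0.00943), Gphn (-0.32, SE 0.08, FDR 0.0166) and Lhfpl4 (-0.28, SE 0.09, FDR 0.0443). Inhibitory neuron markers were also lower in females, as given above.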

How the data were processed

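The deposited values were raw counts per gene symbol. The authors aligned reads to GRCm38 (mm10) with STAR 2.5.2 and counted exons with HTSeq 0.9.1 in reverse-stranded mode, per the labels' processing notes and the methods. The annotation release was not given in the sources used here. The main test was edgeR 4.0.16 (R 4.3.3), glmQLFTest on the counts as deposited (TMM factors, filterByExpr with minimum count 10 and minimum total 15, FDR 0.05), in 1 fit of 12 male libraries (15098 genes), 1 of 11 Tau libraries (15419) and 1 of all 17 (15594), 12 comparisons in all. Alternatives were DESeq2 1.42.0, voom in limma 3.58.1, RLE factors, no filter, other sets of libraries, length and GC offsets, marker scores and each replicate left out. The study's test was DESeq2 on males, with 3 libraries in each group but KO Tau, which had 2. Which KO Tau library was left out is not stated in the sources used here. Each of the 3 was therefore left out in turn in fits of that form. Without 711, DESeq2 called 1032 genes with WT PBS as the reference and 1377 with WT Tau, both close to the numbers the study reported. Without 712 it called 52 and 15 genes, and without 713 it called 7 and 6. These counts point to 711 as the library that the study left out. The design calls libraries biological replicates, and no further detail of their independence was given. Positions, exon lengths and GC (of each gene's longest transcript) came from GENCODE vM21, and promoters from RefSeq (GRCm38.p6). Members, gene lists and the rule for named genes (all members, Acss2, listed partners that passed or were extreme in a comparison, and the 3 genes most like each member) were chosen with earlier results of these data known. Some genes that this rule names are not reported here.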

Additional observations from a re-analysis of the deposited data

How the results depend on the processing

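In the male comparisons the count of members called stayed at 0 under every alternative but 1, DESeq2 on only male KO Tau and male WT PBS without male KO Tau replicate 711, which called 1 member (Shank3). That alternative changed test, libraries and replicate together, and it has the study's tool and group sizes. The count for female KO Tau against female WT Tau and for both interactions was 0 throughout. For females against males under Tau the count was 3 in the reported fit, 5 with voom and 0 with the thalamus or the neocortex marker score as a covariate, and 0 to 4 when 1 replicate was left out, with 0 without male KO Tau 713 or female WT Tau 331. For any difference among the 6 groups it was 3, 5 with DESeq2, 8 with voom, 0 with the thalamus score, and 0 to 4 when 1 replicate was left out, with 0 without female KO Tau 324. The marker score covariates and the fit without the 2 libraries lowest in dentate granule markers were chosen after seeing the data. The 3 members called in females against males kept their sign under every alternative, while the value of Shank3 in male KO Tau, set against male WT PBS, ran from -0.47 to 0.13. In the test among the 6 groups, Dlg3 was called in 11 of 27 fits and Shank1 and Shank3 in 24 each. Over single members and alternatives in the other 11 comparisons, 2534 values stayed on their side of the threshold and within their SE, 127 moved by more, 22 lost a call and 7 gained one. With 2 or 3 libraries a group, the spread between libraries and not depth set the precision. No group was large enough to test a single library as an outlier. No paired analysis was possible because no 2 groups share a replicate number.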
